A study of Mus musculus with 160 samples.

Results

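The genes followed here code for the signaling machinery that sits under activating receptors of myeloid cells, and their transcripts were read in single mouse cells sorted along an induced passage from hemogenic endothelium to blood progenitors. They are 9 of the 23420 genes in the expression table: the adaptors Tyrobp and Fcer1g, the Src-family kinases Lyn, Fgr and Fyn, the kinases Syk and Btk, and the phosphatases Ptpn6 and Inpp5d. The genes were selected on expression values of these same cells, and the day-21 cells were split on their level of Gata2, a transcription factor of hematopoietic stem and mast cells, at 31 TPM, a length-scaled unit of transcript abundance. All values below are therefore descriptions.

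The adaptors Tyrobp (DAP12) and Fcer1g (the common gamma chain of Fc receptors) are short membrane proteins whose cytoplasmic tails carry an immunoreceptor tyrosine-based activation motif, or ITAM. When a receptor that uses them is engaged, a Src-family kinase such as Lyn, Fgr or Fyn phosphorylates the motif, Syk docks on it, and Syk passes the signal through scaffold proteins to Btk and phospholipase C. Ptpn6 (SHP-1) removes phosphate from tyrosines and Inpp5d (SHIP1) from a membrane inositol lipid, and both restrain the pathway. In mast cells the gamma chain, Lyn, Fyn, Syk and Btk serve the high-affinity IgE receptor, and in monocytes, neutrophils and natural killer cells the adaptors serve Fc and lectin-like receptors.

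The 160 cells carried 4 labels: 65 induced hematopoietic endothelial cells (iHECs) and 21, 18 and 56 induced hematopoietic progenitor cells (iHPCs) of days 14, 17 and 21, or days 3, 6 and 10 of maturation. All came from C57BL/6 mouse pluripotent stem cells made to express Runx1 and Hoxa9, and no group was a control without these factors. By the study's text the iHPCs came from its iR9 embryonic stem cells, which carry a doxycycline-inducible Runx1-p2a-Hoxa9 cassette in the Rosa26 locus. A supplementary legend on the time course gives the same source for the iHECs. The iHPCs had matured on OP9-DL1 feeder cells, a stromal line that displays a Notch ligand. A different sort gate was used for iHECs, for days 14 and 17, and for day 21. Endothelial cells were taken as CD31+CD41lowCD45-c-kit+CD201high. Cells of days 14 and 17 were taken as CD45+ after removal of lineage-positive cells with antibodies that included Gr1, F4-80 and FcεRIα, the ligand-binding chain of the IgE receptor. Those of day 21 were sorted as Ter119-CD45+c-kit+CD127+, with no step against Gr1, F4-80 or FcεRIα. Days 14 and 17 shared a gate, and in the comparisons of iHECs with day 14 and of day 17 with day 21 the stage and the gate cannot be told apart. No label names a culture or an animal, so every group counts as 1 sample whose cells cannot stand in for replicates, and no p-value is given. SDs are between cells.

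Read depth is unknown, since TPM values sum to about the same total in every cell (988686 to 999108). The number of genes above 1 TPM, the threshold used here for a listed gene, had a median of 4926 in iHECs. In iHPCs the medians were 8200, 8101 and 6695.5 at days 14, 17 and 21. Widely used genes were at 0 in some cells (Hprt in 6 and Tbp in 28), so a value of 0 does not show that a gene was silent. Endothelial markers went with the iHEC label, Cdh5 being above 1 TPM in 63 of 65 iHECs and at 0 in all iHPCs. Of the iHPCs, 4 had Ptprc, the gene of the CD45 sort marker, at or below 1 TPM, although they were sorted as CD45+ (called cells that lacked Ptprc below). At day 14, 2 of these cells had the stem cell gene Pou5f1 at 972 and 698 TPM. The other 2 were a day-17 cell, with the stromal marker Col1a1 at 45.2 TPM, and a Gata2-high day-21 cell. This day-21 cell had Tyrobp at 5031 TPM and Fcer1g at 3272. Whether its Ptprc transcript was missed was not tested. A further 9 pairs of cells correlated at r between 0.959 and 0.994 over log2(TPM + 1), above the next pair at 0.947. In 71 of 81 comparisons the cells of a pair had one of the 9 genes on the same side of 1 TPM, and whether a pair came from 1 cell was not tested. Some results are also given without these cells, where stated, and all other levels, shares and intervals include them. Lowest values can depend on them. That of Ptpn6 at days 14 and 17 was 18.8 and 12.8 TPM, and 213 and 160 TPM without the cells that lacked Ptprc.

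The adaptors were the 9 genes' most abundant transcripts in every iHPC group except that Ptpn6 stood above Fcer1g at day 17, and both were listed in a minority of iHECs. Tyrobp (GRCm38, chromosome 7, 30413760 to 30417585, plus strand) ranged from 0 to 1558 TPM in iHECs, with a median of 0. It ranged from 3.36 to 4382 TPM at day 14, with a median of 1521, and from 2.65 to 2602 TPM at day 17, with a median of 1387.5. At day 21 it ranged from 472 to 7451 TPM, with a median of 1985. Every iHPC thus listed Tyrobp, whereas 17 of 65 iHECs did (26.2%, exact Clopper-Pearson 95% interval 16 to 38.5, which covers counting error only, as do all intervals and limits below). The lowest 3 values of days 14 and 17 belonged to the 3 cells of those days that lacked Ptprc. Without them the lowest value was 568 TPM at day 14 and 214 TPM at day 17.

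Fcer1g (chromosome 1, 171229572 to 171234365, minus strand) ranged from 0 to 1970.2 TPM in iHECs, with a median of 0, and was listed in 21 of 65 (32.3%, interval 21.2 to 45.1). At day 14 it ranged from 0 to 1574 TPM around a median of 685. At day 17 the range was 0 to 1067 TPM and the median 144. At day 21 it ranged from 117 to 3668 TPM around a median of 989.7. The level at day 17 was therefore the lowest of the iHPC groups, and it stayed so without the cells that lacked Ptprc, with medians of 696 TPM at day 14 and 149.7 TPM at day 17. The medians of Tyrobp without those cells lay closer, at 1565 TPM at day 14 and 1484 TPM at day 17. In cells that listed both adaptors, the median log2 ratio of Tyrobp to Fcer1g TPM was 0.996 at day 14 and 3.21 at day 17, where Tyrobp was the higher of the pair in 17 of 17 cells.

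**Figure D1:**
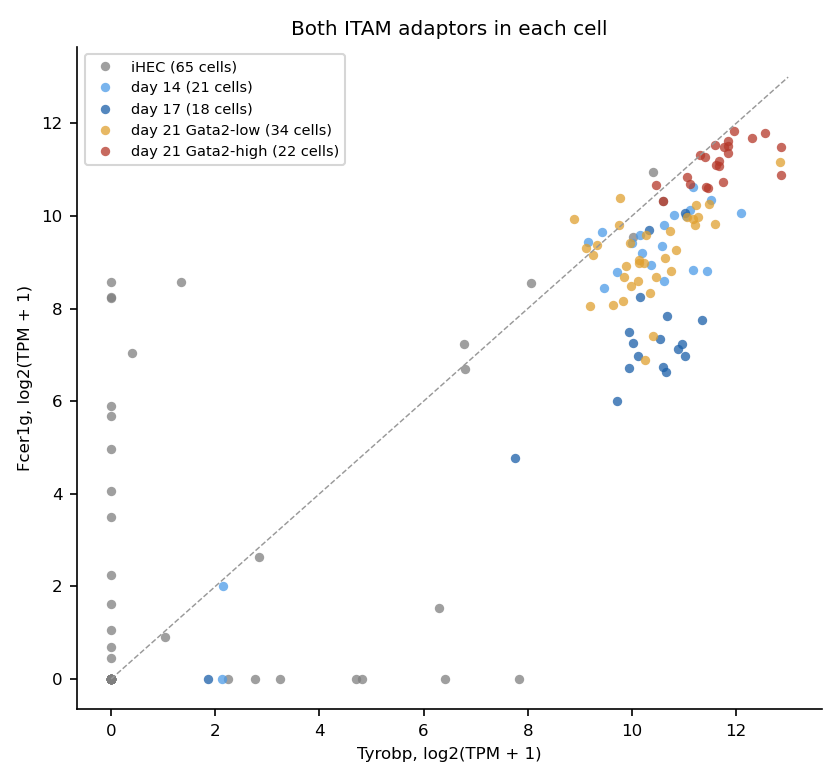
Tyrobp (horizontal) and Fcer1g (vertical) as log2(TPM + 1) in each of the 160 cells, colored by group, with a dashed line where both are equal. most iHECs lie at or near an axis or the origin and 9 of 65 list both adaptors, the 17 day-17 iHPCs that list both lie below the line, and day-21 Gata2-high cells form the upper right end, with Fcer1g between 1284 and 3668 TPM.

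RefSeq sequences around transcription start sites (GRCm38.p6, 250 bases before to 50 after the start) were held for 7 of the 9 genes, in 8 windows. Those of Fcer1g, Btk and Inpp5d are shown because these genes were higher in the Gata2-high cells, and the window of Syk that held a match because Syk was lower there. Each reads 5′ to 3′ along the gene's own strand. Capitals mark GAGGAA, the core bound by PU.1 (with GT after it in GAGGAAGT), and TGTGGT, the core bound by Runx factors, on either strand, so that their reverse forms TTCCTC and ACCACA count too.
Fcer1g, chr1:171234300-171234599, minus strand: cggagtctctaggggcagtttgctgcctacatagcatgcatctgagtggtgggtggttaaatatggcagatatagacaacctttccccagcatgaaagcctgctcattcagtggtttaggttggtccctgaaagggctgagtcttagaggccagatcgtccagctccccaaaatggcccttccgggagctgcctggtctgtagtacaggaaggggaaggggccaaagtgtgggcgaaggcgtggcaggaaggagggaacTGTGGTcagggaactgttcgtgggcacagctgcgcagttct
Btk, chrX:134583091-134583390, minus strand: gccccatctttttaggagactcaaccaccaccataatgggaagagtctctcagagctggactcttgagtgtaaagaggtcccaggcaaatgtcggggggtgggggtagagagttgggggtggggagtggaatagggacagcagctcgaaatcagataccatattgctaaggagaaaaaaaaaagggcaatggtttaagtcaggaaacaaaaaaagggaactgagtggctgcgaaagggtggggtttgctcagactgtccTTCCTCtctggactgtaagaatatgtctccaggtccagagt
Inpp5d, chr1:87620062-87620361, plus strand: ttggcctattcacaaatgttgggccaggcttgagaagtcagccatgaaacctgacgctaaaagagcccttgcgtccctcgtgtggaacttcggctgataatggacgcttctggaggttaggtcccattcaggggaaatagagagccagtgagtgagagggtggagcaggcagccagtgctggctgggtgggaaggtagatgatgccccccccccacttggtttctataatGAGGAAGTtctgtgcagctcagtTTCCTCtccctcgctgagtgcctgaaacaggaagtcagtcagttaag
Syk, chr13:52596632-52596931, plus strand: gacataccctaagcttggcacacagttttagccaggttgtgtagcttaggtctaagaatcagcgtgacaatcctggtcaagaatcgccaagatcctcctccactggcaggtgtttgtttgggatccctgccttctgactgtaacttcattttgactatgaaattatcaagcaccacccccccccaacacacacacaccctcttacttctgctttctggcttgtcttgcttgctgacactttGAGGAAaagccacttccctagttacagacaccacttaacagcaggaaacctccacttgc
The letters GAGGAA stood in 4 of the 8 windows (Btk, Fgr, Inpp5d and 1 of 2 windows of Syk), against 28.3% of 32851 windows in the table. GAGGAAGT, which contains the former, stood in that of Inpp5d and in 3.2% of all windows, and TGTGGT in that of Fcer1g and in 16.8% of all windows. The core of Gata factors, searched as AGATAA, stood in none of the 8 windows, against 11.2% of all. These are matches of letters and not measured binding sites.

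**Figure D2:**
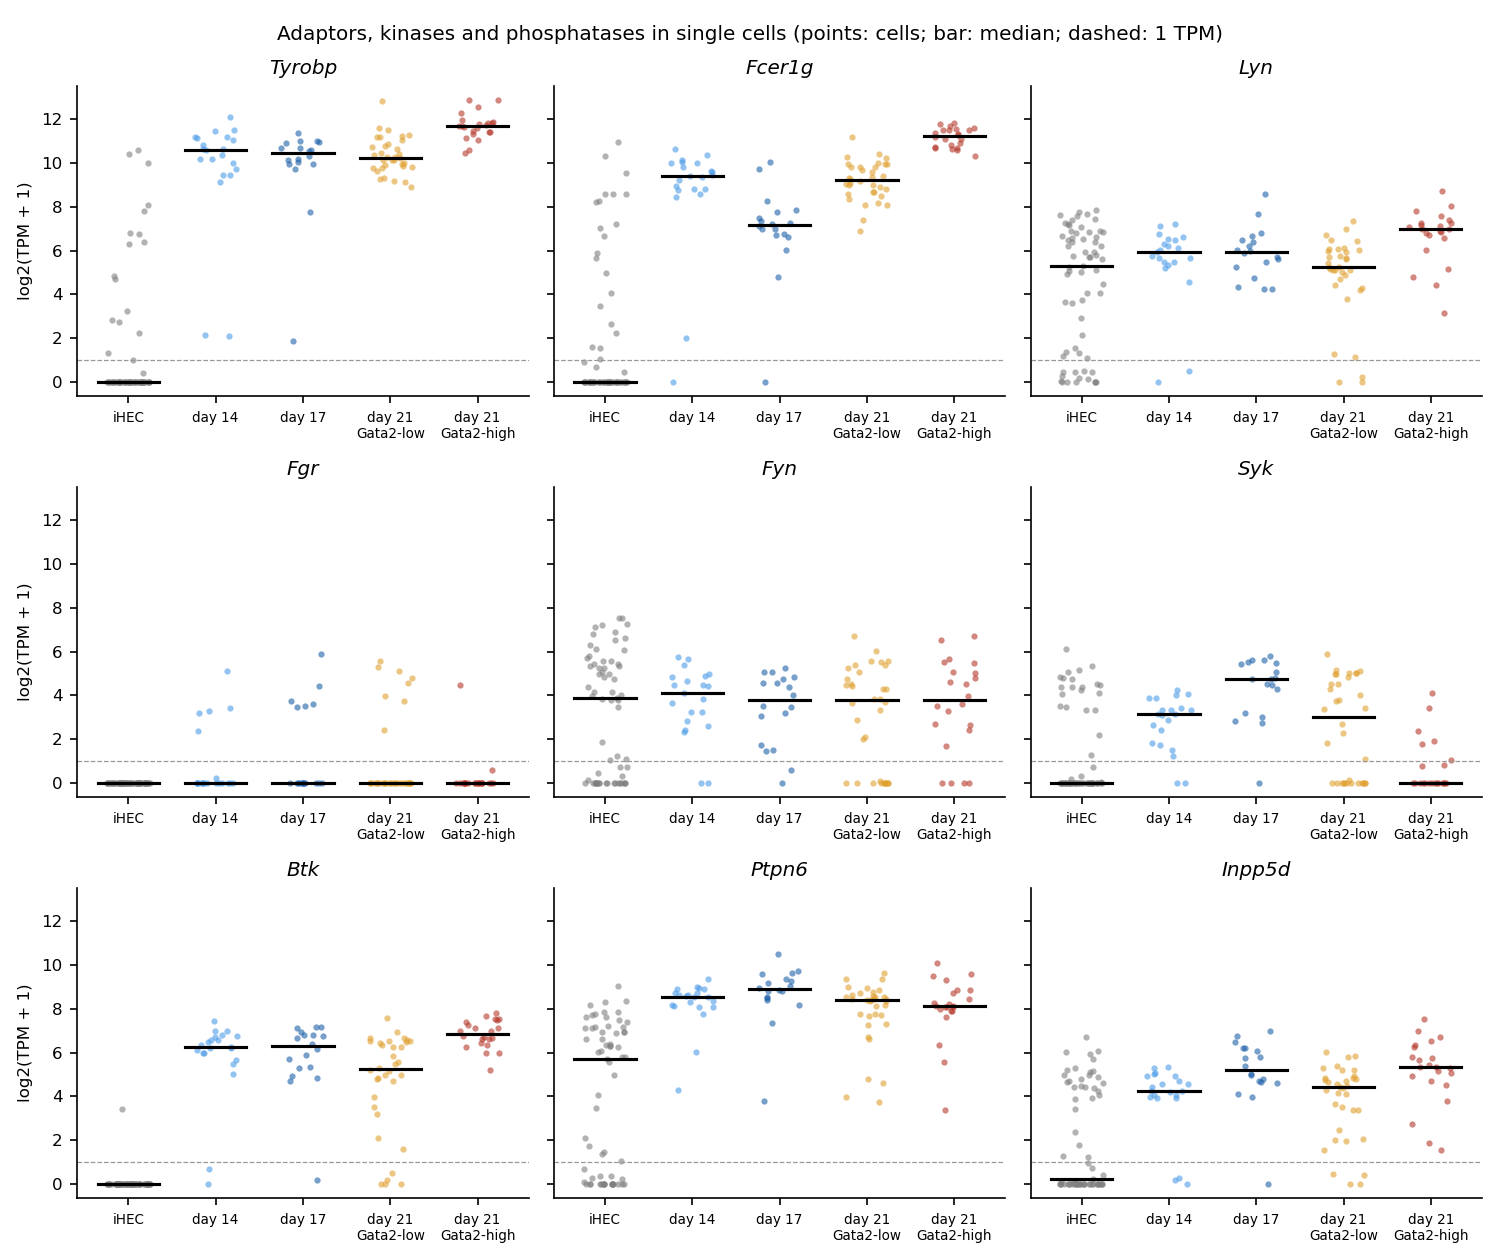
TPM of the 9 genes in each cell on the log2(TPM + 1) scale, by group, with a bar at the median and a dashed line at 1 TPM. Btk lies at 0 in all but 1 iHEC and near 6 log2 units in most iHPCs, Syk is highest at day 17, and Fyn has about the same median in all 5 groups.

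Of the Src-family members, Lyn and Fyn were already common in iHECs, whereas Fgr was not. Lyn (chromosome 4, 3678115 to 3813122, plus strand) exceeded 1 TPM in 51 of 65 iHECs (78.5%, interval 66.5 to 87.7). At days 14, 17 and 21 it did so in 19 of 21, 18 of 18 and 53 of 56 cells. Its TPM ran from 0 to 231 in iHECs. In iHPCs it ran from 0 to 149 at day 14, 18 to 384 at day 17 and 0 to 418 at day 21. The medians were 38.3, 60.7, 60.2 and 61.8 TPM, so those of the iHPC groups lay close together. Fyn (chromosome 10, 39368855 to 39565381, plus strand) had medians of 13.6 TPM in iHECs and 16.1, 13 and 12.8 TPM in iHPCs. It reached 185 TPM in iHECs and 53.4, 36.6 and 105 TPM in iHPCs of the 3 days, with cells at 0 in each group. Its medians thus lay close together in all groups, and it was listed in 41 of 65 iHECs, 19 of 21, 16 of 18 and 41 of 56 iHPCs. Fgr (chromosome 4, 132974095 to 133001910, plus strand) passed 1 TPM in 0 of 65 iHECs, which allows a share of up to 4.62%. For a count of 0 such a limit is 3 divided by the number of cells. The exact interval here ends at 5.52%. It passed 1 TPM in 5 of 21 cells at day 14, 6 of 18 at day 17 and 9 of 56 at day 21. Its median was 0 in each group and its highest values were 33.3, 59.3 and 45.9 TPM at days 14, 17 and 21.

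The kinases downstream of the ITAM differed from each other. Btk (chromosome X, 134542336 to 134583570, minus strand), a Tec-family kinase that activates phospholipase C gamma, passed 1 TPM in 1 of 65 iHECs (1.54%, interval 0.0389 to 8.28), at 9.80 TPM. It ranged from 0 to 175 TPM at day 14 (median 75.5), from 0.150 to 141 at day 17 (median 77.4) and from 0 to 222 at day 21 (median 80.3). Its medians at the 3 days thus lay within 5 TPM of each other. Syk (chromosome 13, 52583173 to 52648792, plus strand), the kinase that binds phosphorylated ITAMs, was listed in 21 of 65 iHECs with a median of 0 and a highest value of 69.2 TPM. It ranged from 0 to 18.3 TPM at day 14 (median 8.02), 0 to 54.1 at day 17 (median 25.9) and 0 to 57.8 at day 21 (median 0.743). The share of cells with Syk above 1 TPM was 90.5% at day 14 (interval 69.6 to 98.8), 94.4% at day 17 (72.7 to 99.9) and 48.2% at day 21 (34.7 to 62). Above 10 TPM the shares were 23.8%, 72.2% and 28.6%, so that day 17 stayed the highest while days 14 and 21 no longer stood apart.

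The phosphatases were listed in iHECs as well. Ptpn6 (chromosome 6, 124720707 to 124738714, minus strand) passed 1 TPM in 42 of 65 iHECs (64.6%, interval 51.8 to 76.1), up to 517 TPM around a median of 51.8. By median it was the highest of the 9 genes there, but it exceeded Lyn, the next, in only 34 of 65 cells. It was listed in every iHPC, from 18.8 to 663 TPM at day 14 (median 373), 12.8 to 1452 at day 17 (median 483) and 9.36 to 1100.1 at day 21 (median 317). Inpp5d (chromosome 1, 87620312 to 87720507, plus strand) was listed in 29 of 65 iHECs, up to 105 TPM around a median of 0.164. Its medians at days 14, 17 and 21 were 17.9, 36.5 and 25.5 TPM, with highest values of 39.3, 127 and 184. The order of medians at day 14, from high to low, was Tyrobp, Fcer1g, Ptpn6, Btk, Lyn, Inpp5d, Fyn, Syk, Fgr, but neighbors often crossed within a cell: Btk exceeded Lyn in 12 of 21 cells and Inpp5d exceeded Fyn in 11 of 21. At day 21 Btk exceeded Lyn in 26 of 56 cells. TPM is scaled per transcript length, which is what allows levels of different genes to be set side by side. The annotation places genes on the opposite strand within Lyn, Fyn, Btk and Ptpn6 (for example Gm20531 in Ptpn6), and the strand used in counting is not given in the sources used here, so their reads cannot be told apart.

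The first comparison, day 14 minus iHEC, spans the passage from endothelium to blood. It was made on group means of log2(TPM + 1), from which the median difference of 0.93 over 9674 genes, those that passed 1 TPM in over 30 cells, was subtracted to give a relative difference. Of the 9 genes 8 are among these 9674, and Fgr is not. Tyrobp averaged 9.76 ± 2.64 at day 14 and 1.49 ± 2.95 in iHECs, a relative difference of 7.35. Fcer1g averaged 8.67 ± 2.64 against 1.99 ± 3.32, a relative difference of 5.75. Btk had a relative difference of 4.80 and Ptpn6 of 3.28. These 4 of 9 genes were at least 1 log2 unit higher, as were 27.3% of the 9674 genes, and 0 of 9 were at least 1 lower, against 24.4%. Inpp5d, at 0.96, fell just short of the limit and passed it at 1.33 without the cells that lacked Ptprc. Lyn, Syk, Fgr and Fyn had relative differences of 0.19, 0.43, -0.08 and -0.42. The median over the 9 genes was 1.88 before and 0.96 after subtracting the median of all genes. For each gene the values of the 2 groups overlapped, and the pooled SD between cells was 2.80 for Tyrobp and 1.37 for Btk. The overlap of Btk rested on the 2 day-14 cells that lacked Ptprc. Without them its lowest day-14 value was 31.6 TPM, above the highest iHEC value of 9.80 TPM. The share of all genes without overlap was not taken. Leaving these cells out also lowered the SD at day 14, to 0.79 for Tyrobp and 0.57 for Btk.

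The number of listed genes moved with this comparison, as did the endothelial markers, whose summed TPM had a median of 1384 in iHECs (89.1 to 4322) and 43.7 at day 14 (0.124 to 176). Cdh5 and Tek were at 0 in all day-14 cells. The 10 neutrophil or monocyte markers had a median sum of 0 TPM in iHECs and 658 at day 14, with Ctsg, S100a8 and S100a9 at 0 in all cells of day 14. Their part in the differences was not tested.

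How far the pathway was already listed in iHECs differed from cell to cell. An iHEC listed a median of 3 of the 9 genes (0 to 7), against 8 at days 14 and 17 and 7 at day 21. Among iHECs the number went with the number of all genes above 1 TPM (Pearson r 0.73 over 65 cells, both read from the same libraries). Either adaptor was above 1 TPM in 29 of 65 iHECs and both in 9, so that most iHECs with an adaptor listed only one of them. Of those 29 cells, 28 listed the endothelial cadherin gene Cdh5 and 1 listed Ptprc. The level of Cdh5 tended to be lower where the adaptors were higher, with Pearson r of log2(TPM + 1) at -0.48 for Tyrobp and -0.38 for Fcer1g over 65 cells, and its median over iHECs was 61.1 TPM. The 3 iHECs with the highest Tyrobp had Cdh5 at 0.438, 3.59 and 1.304 TPM, and r was not computed without them. Where Tyrobp was between 1.04 and 8.44 TPM, Cdh5 ran from 46.3 to 145 TPM. The median number of genes above 1 TPM was 4974 in these 29 cells and 4809 in the other 36.

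**Figure D3:**
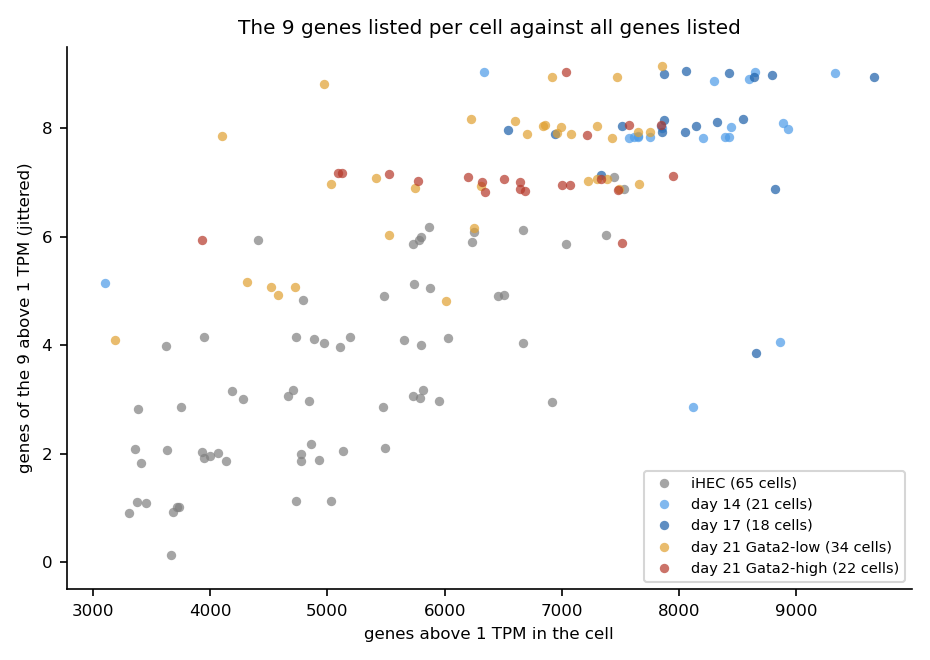
Number of the 9 genes above 1 TPM in a cell (vertical, jittered) against the number of all genes above 1 TPM in it (horizontal), by group. iHECs run from 0 to 7 of the 9 genes along a slope, while most iHPCs list 7 to 9, and the 3 low points at 3 or 4 of the 9 genes between 8120 and 8862 listed genes are cells with Ptprc at or below 1 TPM.

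A few iHECs held adaptor transcripts at levels within the range of the iHPCs. Tyrobp exceeded 100 TPM in 7 iHECs and reached 1035 TPM or more in 3 of them. The cell with the highest Tyrobp, iHEC 64, had 1558 TPM of Tyrobp, 1282 of Fcer1g and 53.9 of Ptprc, with Cdh5 at 0.438 TPM. It was the 1 iHEC with Ptprc above 1 TPM, although iHECs were sorted as CD45-. iHEC 31 followed with 1356 TPM of Tyrobp and 1970.2 of Fcer1g, with Ptprc at 0 and Cdh5 at 3.59. Its Pecam1, the gene of the CD31 sort marker, was at 0.231 TPM, the lowest of all iHECs. iHEC 2 had 1035 TPM of Tyrobp, 751 of Fcer1g, 9.80 of Btk, 1.304 of Cdh5 and 380.5 of Itga2b, the gene of CD41. In the other two cells Btk was at 0. No result was computed without these 3 iHECs. Over 160 cells the genes whose log2(TPM + 1) was most like that of Tyrobp, by Pearson r among 9674 genes, were Rac2 (0.93), Coro1a (0.92) and Srgn (0.89). For Fcer1g they were Srgn (0.91), Rac2 (0.85) and Coro1a (0.84), and for Fyn no gene exceeded Gnl1 at 0.44, followed by Ssbp4 (0.44) and Aes (0.42). These correlations mix the groups and share library complexity.

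From day 14 to day 17, 2 of the 9 genes were at least 1 log2 unit from the median difference, in opposite directions. With 1 gene each way, these counts lay near the shares of all genes compared, given below. Syk averaged 4.33 ± 1.48 at day 17 and 2.73 ± 1.25 at day 14, a relative difference of 1.33 after subtracting a median difference of 0.28. Fcer1g averaged 6.94 ± 2.102 and 8.67 ± 2.64, a relative difference of -2.004. So 1 of 9 genes was at least 1 log2 unit higher, against 9.03% of the genes compared, and 1 of 9 was at least 1 lower, against 7.09%. Inpp5d was next, at 0.96. The other 6 genes lay between -0.60 (Fyn) and 0.26 (Fgr), and for Tyrobp, Lyn and Btk the sign before subtraction turned from plus to minus without the cells that lacked Ptprc. The median over the 9 genes was 0.15. The neutrophil or monocyte markers were lower at day 17 (median sum 60.7 TPM, 0.983 to 9200.2) than at day 14 (658, 0.787 to 1857), and their part was not tested.

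From day 17 to day 21 Fcer1g and Tyrobp were higher and Syk lower. Fcer1g averaged 9.96 ± 1.22 at day 21, a difference of 3.02 and of 3.76 relative to the median difference of -0.74. Tyrobp averaged 10.87 ± 0.996, with relative difference 1.74. Syk averaged 1.82 ± 2.08, with relative difference -1.77. So 2 of 9 genes were at least 1 log2 unit higher, against 10.3% of all genes compared, and 1 of 9 at least 1 lower, against 13.1%. Lyn, Fgr, Fyn, Btk, Ptpn6 and Inpp5d were within 0.57 of the median difference. The gate at day 17 removed cells with surface FcεRIα and that at day 21 did not, which cannot be told apart from the day. The median over the 9 genes was 0.37.

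**Figure D4:**
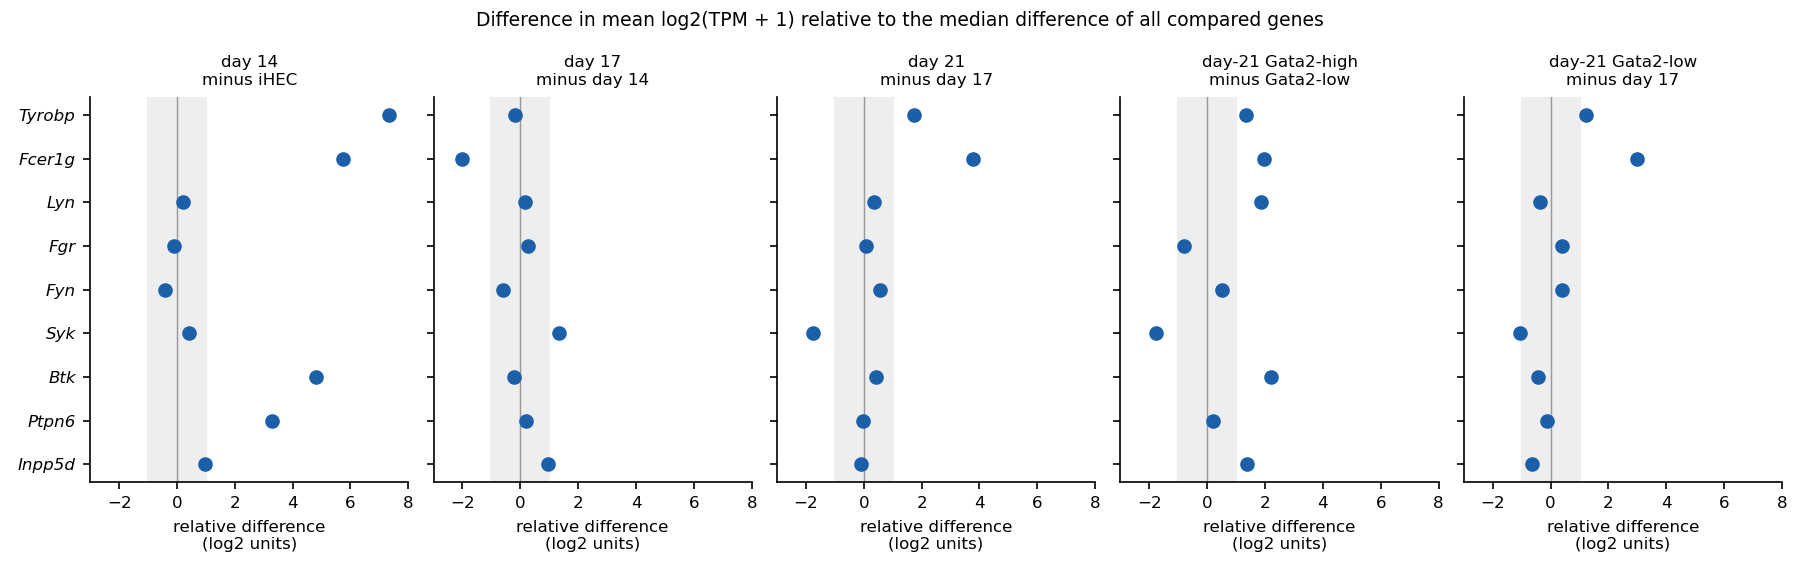
Difference in mean log2(TPM + 1) of each of the 9 genes relative to the median difference of 9674 genes (horizontal, log2 units) in the 5 comparisons. The gray band spans -1 to 1. Tyrobp reaches 7.35 from iHEC to day 14, Fcer1g is the 1 gene left of the band from day 14 to day 17, and Syk is left of it in the last 3 panels.

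Within day 21 the split by Gata2 left 22 cells at or above 31 TPM and 34 below. The threshold fell in a wide gap: the highest values below it were 9.18, 4.95 and 4.10 TPM and the lowest above it 66.0, 71.0 and 90.7 TPM. Both sides shared the day and the gate and had similar numbers of listed genes, with medians of 6665.5 and 6769.5. Fcer1g ran from 1284 to 3668 TPM in Gata2-high cells (median 2407) and from 117 to 2286 in Gata2-low cells (median 594). Tyrobp ran from 1405 to 7451 TPM (median 3272) and from 472 to 7321 (median 1213). The Gata2-high cells thus filled the upper range of both adaptors, with overlap. Btk ran from 35.5 to 222 TPM (median 116) against 0 to 189 (median 37), and was listed in 22 of 22 and 29 of 34 cells. Lyn ran from 7.85 to 418 TPM (median 126) against 0 to 161 (median 36.6). Inpp5d ran from 1.92 to 184 TPM (median 39.1) against 0 to 63.9 (median 20.4). Syk went the other way, from 0 to 16.1 TPM (median 0) in Gata2-high cells and 0 to 57.8 (median 7.48) in Gata2-low cells, above 1 TPM in 6 of 22 (27.3%, interval 10.7 to 50.2) and 21 of 34 (61.8%, 43.6 to 77.8).

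On the log2 scale the Gata2-high minus Gata2-low differences were 2.20 for Btk, 1.98 for Fcer1g, 1.87 for Lyn, 1.39 for Inpp5d and 1.34 for Tyrobp, and -1.78 for Syk, the median difference of all genes being 0. Thus 5 of 9 genes were at least 1 log2 unit higher, against 13% of the genes compared, and 1 of 9 at least 1 lower, against 10.2%. Ptpn6, Fyn and Fgr differed by 0.21, 0.51 and -0.81. The median over the 9 genes was 1.34. The pooled SD between cells was 0.70 for Fcer1g and 0.73 for Tyrobp, and between 1.63 and 1.80 for Lyn, Syk, Btk and Inpp5d, so that the difference between means exceeded the SD between cells for Fcer1g, Tyrobp, Btk and Lyn and not for Syk and Inpp5d. With Gata2 split at 1 TPM, where 12 cells with Gata2 between 1 and 10 TPM joined the high side, Lyn and Btk alone stayed at least 1 higher and none was lower. With the split at 100 TPM, Tyrobp fell below the limit.

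Mast cell markers moved with the split. The 8 mast cell or basophil markers summed to a median of 64970.3 TPM in Gata2-high cells (2263 to 130005) and 1044 in Gata2-low cells (87.4 to 4663), with Tpsb2 and Tpsab1 at 0 in every day-21 cell. Cpa3, which codes for a mast cell protease, had medians of 10662 and 868 TPM and was listed in every day-21 cell. The 8 T lymphoid markers went the other way, with a median sum of 0 TPM (0 to 718) in Gata2-high and 339 (0.749 to 2943) in Gata2-low cells. The 10 neutrophil or monocyte markers had a median sum of 1665.9 TPM (0 to 4789.6) in Gata2-high and 20.3 (0 to 1311) in Gata2-low cells, with Mpo, Elane, Lyz2, S100a8 and S100a9 at 0 in every day-21 cell. Nearly all of the sum in Gata2-high cells was Ctsg, with a median of 1655.3 TPM against 1.14 in Gata2-low cells. Prtn3 and Ly6c2 of that list went the other way, as Prtn3 was listed in 0 of 22 Gata2-high and 11 of 34 Gata2-low cells and Ly6c2 in 0 of 22 and 10 of 34. Itgam did not, being listed in 7 of 22 and 9 of 34, and Csf1r was listed in 0 of 22 and 1 of 34. The part of these 3 lists in the differences of the 9 genes was not tested. In the 56 day-21 cells the genes most like Tyrobp were Srgn (Pearson r 0.76), Clec4a2 (0.76) and Plgrkt (0.75), and those most like Fcer1g were Ifitm2 (0.87), Srgn (0.81) and Clec4a2 (0.80), among 9277 genes. Between the adaptors r was 0.75 over all 56 cells, 0.61 in the Gata2-high and 0.46 in the Gata2-low cells.

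The Gata2-low cells of day 21 were also set against day 17. Relative to a median difference of -0.74, Fcer1g was 2.99 and Tyrobp 1.22 higher and Syk was lower, at -1.07. So 2 of 9 genes were at least 1 log2 unit higher, against 10.6% of the genes compared, and 1 of 9 lower, against 13.6%. Without the day-17 cell that lacked Ptprc, Tyrobp was no longer at least 1 higher, at 0.74. The other 6 genes lay between -0.64 (Inpp5d) and 0.41 (Fgr), and the median over the 9 genes was -0.11. The higher Fcer1g at day 21 was thus present on both sides of the Gata2 split. Mast cell markers were also higher in the Gata2-low cells than at day 17. Mcpt1, Mcpt4 and Cma1 were listed in 0 of 18 day-17 cells and in 28, 31 and 31 of 34 Gata2-low cells. Cpa3 was listed in 11 of 18 and 34 of 34, and Tpsb2 and Tpsab1 were at 0 in both groups. The gates of the 2 days also differed. The part of these markers or of the gate in the higher Fcer1g was not tested.

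Lck, the Src-family kinase known from T cell receptor signaling, was set beside Lyn cell by cell. Among iHECs, 11 of 65 had more Lck than Lyn, and at day 14 this held for 2 of 21 cells. At day 17 it held for 15 of 18 cells. At day 21 the Gata2 split divided the cells, as Lck exceeded Lyn in 34 of 34 Gata2-low and 1 of 22 Gata2-high cells. Lyn itself had a median TPM of 60.7 at day 14, 60.2 at day 17, 36.6 in Gata2-low and 126 in Gata2-high cells. Lck had medians of 5.78, 681, 771 and 0.694 TPM in these groups, so the medians of Lck lay further apart than those of Lyn.

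Of 54 further genes of the pathway in 6 lists, 53 were in the table (Pirb was not) and 32 were among the genes compared. From iHEC to day 14, 18 of these 32 were at least 1 log2 unit higher and 6 lower, with a median relative difference of 1.06, against 27.3% and 24.4% of all genes compared. At day 17, against day 14, the numbers were 9 and 4, beside 9.03% and 7.09% of all genes. At day 21, against day 17, they were 12 and 5 (all genes 10.3% and 13.1%), and for the Gata2-low cells 12 and 6 (all genes 10.6% and 13.6%). Between Gata2-high and Gata2-low cells they were 16 and 4, beside 13% and 10.2% of all genes.

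Receptors that use the adaptors were mostly too rare to be compared, with 2 of 13 listed in more than 30 cells. Fcgr3, the low-affinity IgG receptor, was above 1 TPM in 39 of 65 iHECs with a median of 2.50 TPM and a highest value of 2494. Its medians were 71.2 TPM at day 14, 0 at day 17, 21.9 in Gata2-low and 281 in Gata2-high cells. Fcgr3 therefore shared the dip of Fcer1g at day 17, with relative differences of -3.81 between days 14 and 17 and 4.12 between days 17 and 21. Clec4e, a lectin receptor that pairs with the gamma chain, was listed in 21 of 22 Gata2-high and 10 of 34 Gata2-low cells, with a difference of 5.78. Ms4a2, the beta chain of the IgE receptor, was listed in 17 of 22 Gata2-high cells (77.3%, interval 54.6 to 92.2) and 2 of 34 Gata2-low cells (5.88%, 0.720 to 19.7), and in 0 of 65, 0 of 21 and 0 of 18 cells of the earlier groups, which allows up to 4.62%, 14.3% and 16.7%. The ligand-binding chain Fcer1a was listed in 2 of 22 Gata2-high cells and 0 of 34 Gata2-low cells. Trem1 and Clec5a, myeloid receptors that use Tyrobp, were listed in 9 and 13 of 21 cells at day 14 and in 0 of 56 at day 21.

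Among the 10 scaffolds and effectors, 8 were compared. Vav1, an exchange factor for Rac, was higher at day 14 than in iHECs by 4.26 relative to the median difference, and Lcp2 (SLP-76) was lower, at -2.999, with medians of 108 TPM in iHECs and 24.3 at day 14. Lat2 was higher at day 17 than at day 14 by 3.03. Lat, the scaffold of T and mast cells, was higher at day 21 than at day 17 by 6.70, with medians of 914 TPM in Gata2-high and 145 TPM in Gata2-low cells. Between Gata2-high and Gata2-low cells 6 of these 8 were at least 1 higher and 0 lower, beside 13% and 10.2% of all genes. From day 17 to the Gata2-low cells Lat was higher by 5.53 and Plcg1 lower, at -1.59.

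Of the other subunits with an ITAM or a related signaling motif, 3 of 7 were compared. Cd3g, of the T cell receptor complex and also among the T lymphoid markers, was listed in 26 of 34 Gata2-low and 4 of 22 Gata2-high cells, with a difference of -4.48 between high and low and of 5.89 from day 17 to the Gata2-low cells. It was 4.12 higher from day 17 to all day-21 cells. Cd79b, of the B cell receptor complex, was listed in 14 of 18 cells at day 17 and 7 of 56 at day 21, with a relative difference of -2.48 for all day-21 cells and -2.11 for the Gata2-low cells. Of the other Syk and Tec family kinases, 2 of 4 were compared, and Tec was higher in Gata2-low cells than at day 17 by 2.55.

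Of the other Src-family kinases and their regulators, 6 of 8 were compared. Yes1 was lower at day 14 than in iHECs, at -3.61, and was listed in 38 of 65 iHECs and 3 of 21 day-14 cells. Lck was higher at day 17 than at day 14, by 5.49. Lck was lower in Gata2-high than in Gata2-low cells, at -7.79, as was Ptprc, at -1.97.

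Of the inhibitors, 11 of 12 were compared. Milr1 and Dok2 were higher at day 14 than in iHECs, by 4.80 and 3.997. Lilrb4, an inhibitory receptor that binds Ptpn6, was the reverse, at -6.34: its medians were 409.9 TPM in iHECs, 0 at days 14 and 17 and in Gata2-low cells, and 290.5 in Gata2-high cells. Lilrb4 was thus high in iHECs and again in the Gata2-high cells, where it was 7.23 above the Gata2-low cells, and it was lower at day 17 than at day 14, at -1.13. Cd300a was lower at day 17 than at day 14, at -2.03, and lower again at day 21, at -1.69 for all cells and -1.61 for the Gata2-low cells. Dok1 was lower at day 21 than at day 17, at -1.59.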

How the data were processed

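Single sorted cells were amplified and sequenced, and the authors aligned the reads to mm10 with HISAT2 (version 2.1.0) and computed expression with StringTie (version 1.3.4). The deposited values are TPM of 23420 genes in 160 cells. Multi-mapping and strand settings are not given in the sources used here, TPM keeps no depth, and sequencers differ between the labels and the methods. Cells were grouped by their titles. Python 3.11.15 with numpy 2.4.6, pandas 2.3.3, scipy 1.17.1 and matplotlib 3.10.9 was used. A pseudocount of 1 was added before log2, so differences of low genes are understated. Group means were subtracted, then the median difference over 9674 genes (those past 1 TPM in over 30 cells), and a gene counted as higher or lower at 1 log2 unit or more. The script was checked on simulated data. With 1 sample per group no test was run.

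The genes, the pathway lists and the Gata2 split were chosen with earlier results of these data known. Named pathway genes were the 3 highest and the 3 lowest in each comparison, and those most alike the 3 with the highest Pearson r. One gene that this rule names, and the results that need it, are not reported here. Other genes, among them Fcer1a, Ms4a2, Trem1, Clec5a, iHEC marker genes and Cpa3, were named after their values were seen. Alternatives were other pseudocounts, size factors, gene filters, thresholds and Gata2 limits, and sets of cells. Leaving out cells with low Ptprc or 1 of each highly correlated pair was chosen after seeing the data. Coordinates of genes are from GENCODE on GRCm38, and promoter windows from RefSeq on GRCm38.p6.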

Additional observations from a re-analysis of the deposited data

How the results depend on the processing

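No paired analysis was possible because each group is 1 sample, no test was run, and the numbers shared between labels only name cells. Of the main values, 210 kept their size within the spread allowed, 13 counts of the 9 genes moved and 0 reversed. These values were median differences and counts of the 9 genes, genes listed per cell, and Src-family shares that are not given above. The spread allowed was the SD between cells, which is wide, so keeping within it does not show that a value was stable. Small changes of a count, as from 4 to 6 genes between iHEC and day 14, were taken as kept. The share of all genes past the limit was taken at the main setting only. Counts of the 9 genes at other settings, here and above, therefore have no such share beside them. With a pseudocount of 0.1, 2 of the 9 genes were higher at day 17 than at day 14 (Syk and Inpp5d) and 2 lower in Gata2-high than in Gata2-low cells (Fgr and Syk). With a pseudocount of 10, 0 genes were higher at day 17 than at day 14, 0 were lower at day 21 than at day 17, 0 were lower in Gata2-high cells, and against day 17 the Gata2-low cells had 1 higher (Fcer1g) and 0 lower. Each call of Syk was thus lost with the pseudocount of 10, which shrinks differences of genes at low TPM, and so was that of Inpp5d between Gata2-high and Gata2-low cells (4 higher in place of 5). From iHEC to day 14, 6 genes in place of 4 were higher with the pseudocount of 0.1 and with all genes setting the median, Syk and Inpp5d being added. With the median difference set by all genes listed above 0, 2 genes were higher at day 17 than at day 14, and the Gata2-low cells had 1 higher and 2 lower (Syk and Inpp5d) than day 17. With Gata2 split at 1 TPM, 2 genes were higher (Lyn and Btk) and 0 lower in Gata2-high cells. Without the iHPCs with Ptprc at or below 1 TPM, 1 gene was higher in Gata2-low cells than at day 17. Beyond these alternatives' own construction the cause was not tested. Size factors, leaving out the 20 cells with fewer than 4000 genes above 1 TPM, and keeping 1 cell of each correlated pair changed none of the calls on the 9 genes. Of 351 differences of single genes, 348 moved by less than the pooled SD between cells and 3 by more. That SD, 2.995 for Fcer1g from iHEC to day 14, is a wide allowance. A gene could lose its call and still count as unmoved. Before subtraction of the median, the sign of Fyn turned with a pseudocount of 10 in 3 comparisons (-0.08 from iHEC to day 14), as did that of Btk from day 14 to day 17 (-0.03 in place of 0.04). Of 72 shares of cells above 1 TPM, 11 moved beyond their interval at 0 or 10 TPM, 3 of them those of Syk. The unknown depth limits every share of cells, since a gene at 0 may have been missed.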
